A study of Mus musculus with 6 samples.

Results

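Laminins are cross-shaped secreted proteins of 3 chains, an alpha, a beta and a gamma, that polymerise into the first sheet of a basement membrane, and nidogens are the rod-like proteins that bind the laminin gamma1 chain and link that sheet to collagen IV. In the embryonic kidney such a membrane surrounds the branching ureteric bud and forms around mesenchymal cells when they become nephron epithelium, and epithelial cells read it through integrins and dystroglycan. This account covers 9 genes of the family: the alpha chains Lama1, Lama5, Lama2 and Lama4, the beta chains Lamb1 and Lamb2, the gamma chain Lamc1, and the nidogens Nid1 and Nid2. Members were every probe set of the array to which the platform annotation gives 1 of these symbols and no other, which made 18 probe sets among 45101 on the array.

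The samples were whole mouse kidneys at embryonic day 12.5 on 6 one-colour Affymetrix arrays, 3 arrays per group. The conditional knockout kidneys came from Hoxb7-Cre,Gfp mice bearing a beta-catenin (Ctnnb1) allele with loxP sites around exons 2 to 6, so that recombination is driven in the Hoxb7-expressing ureteric bud and the surrounding mesenchyme keeps its gene. The other group was normal kidneys, with no allele named in the labels, and whether they carry Cre is not stated. Dissected kidneys were distributed at random over 3 vials, and how many kidneys a vial held is not given. The p-values therefore rest on the differences among these vials, some of which may be technical, although the titles call the samples biological replicates. Title and source name call 3 samples knockout while their description field repeats the wording for normal kidney, and every direction below follows the titles. The brightest Ctnnb1 probe set read 6777, 6779 and 6586 signal units in knockout replicates 1 to 3 and 5707, 6760 and 6549 in normal replicates 1 to 3. It was thus not lower in the knockout, and since the place of these probes relative to the deleted exons was not analysed here, it does not check the labels. The kidney genes Wt1, Six2 and Foxd1 had signals between 566 and 2203 on all 6 arrays.

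Of the 18 probe sets, 15 passed the filter on dim probe sets and were tested, at least 1 for each of the 9 genes. Signal is the authors' MAS5 intensity, a scale on which 1 probe set can be compared between arrays, but on which the levels of different genes cannot be ranked. In the knockout 13 of the 15 tested probe sets had a lower mean log2 signal, against 51.9% of all 27022 probe sets tested, and 2 a higher one, a Lama2 and a Nid1 probe set. The median difference of the 15 was -0.26 on the log2 scale, against -0.01 over all probe sets tested. None of the 15 passed the limma test at an adjusted p of 0.05 over all probe sets, where 0.581% of all probe sets did, and the smallest adjusted p among them was 0.222. An unadjusted p under 0.05 with a lower knockout signal was found for 5 of the 15, in Lama1, Lama5 (both tested probe sets), Lamb1 and Lamc1, against 5.72% of all probe sets. This count was 8 without knockout replicate 2, where the share over all probe sets was 3.82%. It was 3 without knockout replicate 3, against 3.81% of all, and 3 when arrays were centred on their medians, against 4.83% of all. All 3 knockout arrays lay below all 3 normal arrays for 6 of the 15, against 8.69% of all probe sets, and for none did they lie above. Since 5 genes had several tested probe sets, genes were also counted by their brightest one. Of the 9 genes 8 were lower, against 50.6% of all 12464 genes tested. An unadjusted p under 0.05 was found for 3 of the 9, against 11.7% of all genes in either direction.

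**Figure D1:**
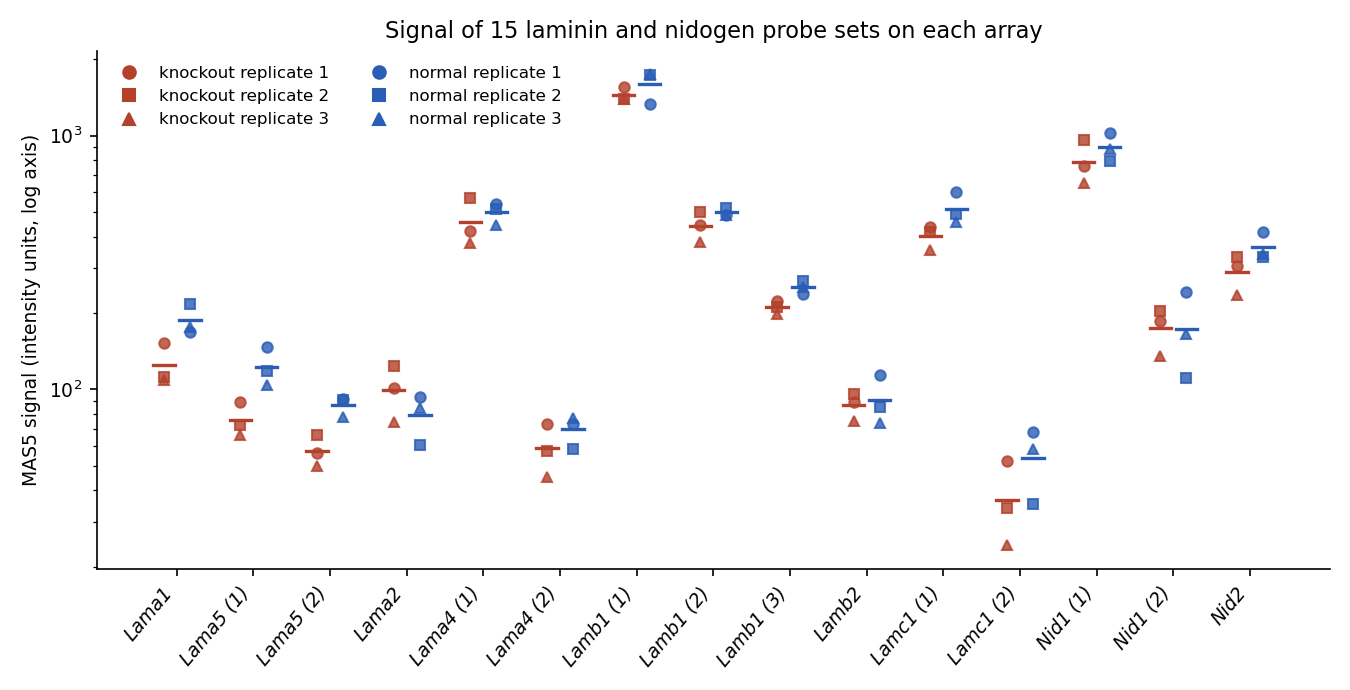
MAS5 signal (intensity units, log axis) of the 15 tested laminin and nidogen probe sets on the 3 knockout arrays (red, left of each pair) and the 3 normal arrays (blue), with a marker shape for each replicate and a line at each group's mean. Numbers in brackets order a gene's probe sets from the brightest, and the groups separate for Lama1, both Lama5 probe sets, the dimmest tested Lamb1 probe set, the brightest Lamc1 probe set and Nid2.

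Promoter sequences of the RefSeq annotation, 250 bases before to 50 bases after the start of the gene, were available for 5 of the 9 genes. Those of Lama5, Lama2 and Lamb1 are shown because these genes span the range of differences: Lama5 had the most negative, Lama2 the most positive and the brightest Lamb1 probe set one of the smallest. In each, capitals mark the core of the recognition sequence of Tcf/Lef proteins, the DNA-binding partners of beta-catenin, read as CTTTG on either strand, and the GC box GGGCGG, the motif of Sp-type factors, on either strand. The Lama5 sequence covers chr2:180225810-180226109 on the minus strand of GRCm38.p6. That of Lama2 covers chr10:27616893-27617192 on the minus strand, and that of Lamb1 chr12:31265043-31265342 on the plus strand.
Lama5: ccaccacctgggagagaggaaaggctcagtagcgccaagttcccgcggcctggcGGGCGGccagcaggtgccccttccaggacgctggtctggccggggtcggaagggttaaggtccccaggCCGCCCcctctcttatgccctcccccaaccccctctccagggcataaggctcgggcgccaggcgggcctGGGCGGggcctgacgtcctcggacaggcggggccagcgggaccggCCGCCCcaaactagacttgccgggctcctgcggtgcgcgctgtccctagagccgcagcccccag
Lama2: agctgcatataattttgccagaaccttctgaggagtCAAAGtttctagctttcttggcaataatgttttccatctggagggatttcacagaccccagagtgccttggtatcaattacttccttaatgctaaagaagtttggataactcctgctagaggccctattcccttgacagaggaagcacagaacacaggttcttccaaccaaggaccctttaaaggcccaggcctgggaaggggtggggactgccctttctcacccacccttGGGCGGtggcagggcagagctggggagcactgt
Lamb1: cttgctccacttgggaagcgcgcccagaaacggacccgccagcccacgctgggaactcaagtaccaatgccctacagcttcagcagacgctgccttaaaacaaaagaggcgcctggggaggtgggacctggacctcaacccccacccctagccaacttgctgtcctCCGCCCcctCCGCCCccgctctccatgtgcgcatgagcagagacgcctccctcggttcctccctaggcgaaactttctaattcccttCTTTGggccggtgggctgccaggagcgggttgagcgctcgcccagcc

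The Lama5 promoter held 24 CpG dinucleotides and 4 GC boxes and had no CTTTG in this window. The Lama2 promoter, by contrast, held 1 CpG, 1 GC box and 1 CTTTG, and the Lamb1 promoter 18 CpG, 2 GC boxes and 1 CTTTG. The median over all 32851 promoters of the table was 7 CpG. Over the same promoters 53.9% held CTTTG and 35.7% held GGGCGG, and a match is one of letters only. The remaining pair with a promoter available, Lamb2 and Nid1, had 3 and 1 matches to CTTTG and 4 and 20 CpG. By the brightest probe sets, Lamb2 had a log2 difference smaller in size than Lamb1 (-0.05 against -0.14), though its sequence is not shown.

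The alpha chains of epithelial basement membranes showed the most negative differences of the family. Lama1 encodes the alpha1 chain, which is laid down when kidney mesenchyme becomes epithelium. Its 1 probe set read 152.3, 111.7 and 108.9 in knockout replicates 1 to 3, against 167.6, 217.4 and 176.2 in normal replicates 1 to 3. Every knockout array was below every normal array, but by little between knockout replicate 1 and normal replicate 1. The knockout mean was 124 ± 24.3 and the normal mean 187 ± 26.6 (signal units, SD, n = 3 each). The log2 difference was -0.60 (SE 0.17, 95% interval from -0.99 to -0.21), with a limma adjusted p of 0.259. Of all probe sets tested 5.03% had a more negative difference.

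Lama5 encodes the alpha5 chain, which is found around the ureteric bud and later in the glomerular basement membrane. Its brightest probe set read 89.3, 72.6 and 66.0 in knockout replicates 1 to 3, against 146.4, 118.6 and 103.9 in normal replicates 1 to 3. Its other tested probe set read 56.0, 65.8 and 49.7 in knockout kidneys, against 91.7, 90.6 and 77.9 in normal kidneys. Both separated the groups on every array. Their log2 differences were -0.69 (SE 0.19, 95% interval from -1.12 to -0.26) and -0.61 (SE 0.18, 95% interval from -1.02 to -0.19), that is 61.9% and 65.7% of the normal signal. The limma adjusted p was 0.222 and 0.280. The remaining Lama5 probe set lay below the filter, at 0.7, 9.5 and 0.9 in knockout and 1.1, 0.4 and 4.6 in normal kidneys, where scatter is too wide to read a difference. In these whole kidneys, fewer cells that make a chain and less RNA per such cell cannot be told apart.

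Markers of both epithelia were set beside these alpha chains. Of the 13 genes of the renal vesicle and early nephron list, the first epithelia of the nephron, 12 were lower in the knockout and 7 of them had an unadjusted p under 0.05. The 1 higher gene, Sfrp2, a secreted Wnt-binding protein, also had such a p (log2 difference 0.30), with all knockout arrays above all normal arrays. Of all 12464 genes tested, by their brightest probe set, 50.6% were lower in the knockout and 11.7% had an unadjusted p under 0.05 in either direction. The summed signal of the renal vesicle list was between 4850 and 5333 in knockout kidneys and between 5912 and 6143 in normal kidneys. Most of it came from Ccnd1, which was lower in the knockout, and Sfrp2, which was higher. None of the list's members was at 0 on any array. Of the 13 tested genes of the ureteric epithelium list 10 were lower and 3 higher, none at an unadjusted p under 0.05, with a median log2 difference of -0.11. Their sum, to which Calb1 contributed most, ran from 3505 to 5402 in knockout kidneys and from 4075 to 4933 in normal kidneys, so the groups overlapped, and Emx1 lay below the filter. The probe sets of Ret, the receptor at the ureteric bud tips, differed: the brighter, which stands for the gene in the list, had a log2 difference of -0.05. The dimmer read 36.7, 38.8 and 57.7 in knockout replicates 1 to 3, against 80.3, 74.2 and 62.7 in normal replicates 1 to 3, without overlap (log2 difference -0.73; limma adjusted p = 0.311). Hoxb7, the gene whose promoter drives Cre, was itself below the filter, at 0.7 to 7.6 on the 6 arrays. Whether the share of either epithelium accounts for the alpha chain values was not tested.

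For the alpha chains known from muscle and vessels the groups overlapped. Lama2 encodes the alpha2 chain, best known from the basement membrane of skeletal muscle fibres and Schwann cells. Its probe set read 100.8, 123.9 and 74.2 in knockout replicates 1 to 3, against 93.2, 60.4 and 84.4 in normal replicates 1 to 3. Knockout replicates 1 and 2 were the highest of the 6 arrays, while knockout replicate 3 lay among the normal ones. The log2 difference was 0.32 (SE 0.24, 95% interval from -0.22 to 0.86), with a limma adjusted p of 0.627.

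Skeletal muscle genes varied between the knockout arrays. The summed signal of the 13 tested genes of that list was 1612, 8481 and 791 in knockout replicates 1 to 3, against 750, 673 and 724 in normal replicates 1 to 3, with 12 of the 13 higher in the knockout and 6 at an unadjusted p under 0.05 (11.7% among all genes, in either direction). Listed muscle genes below the filter were Myf5, Tnnc2 and Ckm. Lama2 was highest on the array with the most muscle signal, knockout replicate 2, and without that array its log2 difference was 0.15. It was 0.14 without normal replicate 2 and 0.52 without knockout replicate 3. The summed signal of 7 tested Schwann and neural crest genes was 478 to 785 in knockout and 470 to 833 in normal kidneys. Within that sum Dbh ran from 7.1 to 166.8 and Th from 16.1 to 140.8 over the 6 arrays, while Sox10 ran from 23.7 to 45.3. The part of either tissue in the Lama2 values was not tested.

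Lama4 encodes the alpha4 chain of endothelial and mesenchymal basement membranes. Its brighter probe set read 422.2, 570.6 and 378.8 in knockout replicates 1 to 3, against 535.6, 515.4 and 445.9 in normal replicates 1 to 3. The groups overlapped, since knockout replicate 2 gave the highest and knockout replicate 3 the lowest value of all. The log2 difference was -0.14 (SE 0.15, 95% interval from -0.49 to 0.20; limma adjusted p = 0.745) and lay at -0.02 without knockout replicate 3 and -0.31 without knockout replicate 2. Its dimmer probe set read 73.0, 57.1 and 45.3 in knockout and 72.9, 58.3 and 77.4 in normal kidneys, a log2 difference of -0.27 (SE 0.23; limma adjusted p = 0.673). That value was -0.10 without knockout replicate 3 and -0.44 without knockout replicate 1. Of the 11 genes of the endothelial list, none of them at 0, 6 were lower and 5 higher in the knockout, with a median log2 difference of -0.11. An unadjusted p under 0.05 was found for 2, both lower (11.7% among all genes, in either direction). The summed signal of the 11 was 2180 to 2405 in knockout and 1949 to 2842 in normal kidneys.

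**Figure D2:**
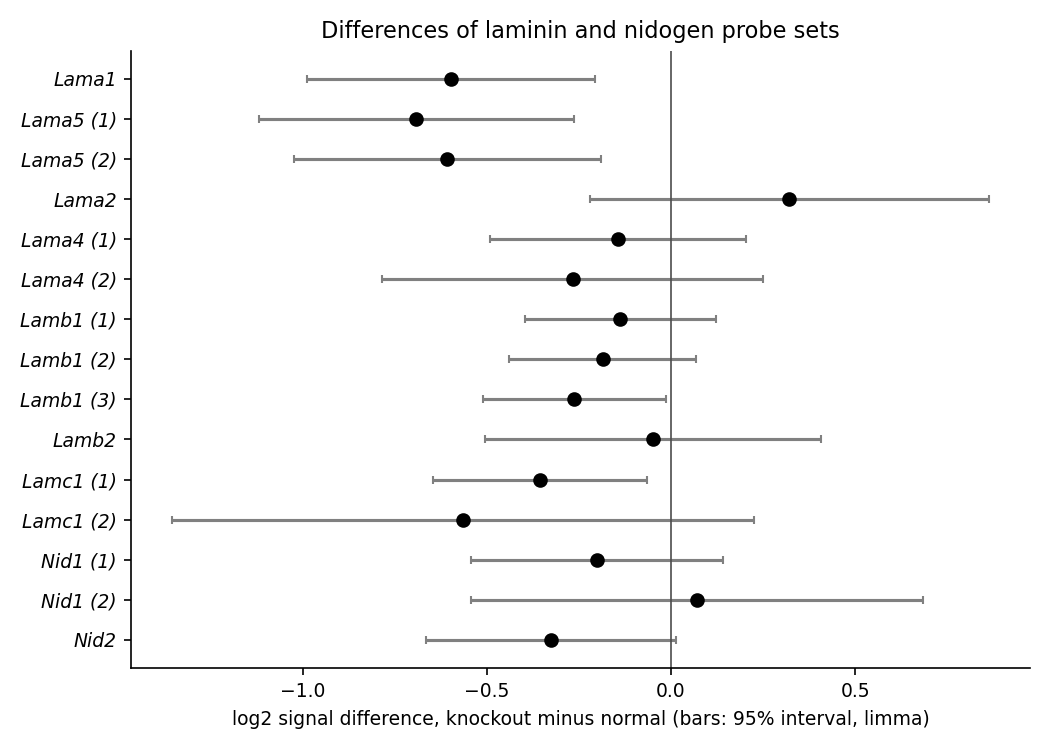
Log2 signal difference, knockout minus normal, of the 15 tested probe sets (points) with the 95% interval of the limma fit (bars), where 0 is no difference. The intervals of Lama1, both Lama5 probe sets, the brightest Lamc1 probe set and the dimmest tested Lamb1 probe set lie below 0, before adjustment for the number of probe sets tested.

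Of the beta chains, Lamb1, which pairs with most alpha chains in the embryo, was measured by 3 tested probe sets. The brightest read 1550, 1391 and 1401 in knockout replicates 1 to 3, against 1329, 1731 and 1747 in normal replicates 1 to 3. Here normal replicate 1 was the lowest of the 6 arrays, whereas it was the highest for 8 of the 15 tested probe sets of the family. The log2 difference was -0.14 (SE 0.11, 95% interval from -0.40 to 0.12; limma adjusted p = 0.666), and it was -0.27 without normal replicate 1, -0.08 without normal replicate 2 and -0.07 without normal replicate 3. The middle probe set read 443.0, 498.5 and 382.2 in knockout and 488.7, 521.0 and 486.9 in normal kidneys, a log2 difference of -0.18 (SE 0.11; limma adjusted p = 0.557) that was -0.09 without knockout replicate 3 and -0.28 without knockout replicate 2. For the dimmest the groups did not overlap, at 224.0, 210.3 and 197.6 in knockout and 238.3, 266.6 and 252.8 in normal kidneys. Its log2 difference was -0.26 (SE 0.11; limma adjusted p = 0.418). All 3 had the same sign. The remaining Lamb1 probe set was below the filter, with signals of at most 12.7 in knockout and 9.7 in normal kidneys.

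Lamb2 encodes the beta2 chain, which replaces beta1 in the mature glomerular basement membrane. Its signals were 89.3, 96.0 and 74.8 in knockout replicates 1 to 3, against 113.4, 85.0 and 73.6 in normal replicates 1 to 3. The groups overlapped in full, and the log2 difference of -0.05 (SE 0.20, 95% interval from -0.51 to 0.41; limma adjusted p = 0.945) became 0.12 without normal replicate 1 and 0.05 without knockout replicate 3.

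Lamc1 encodes the gamma1 chain, which nearly all of the trimers made by these genes contain and which carries the binding site for nidogens. The brighter probe set read 435.6, 415.4 and 354.1 in knockout replicates 1 to 3, against 598.0, 492.0 and 456.0 in normal replicates 1 to 3. Every knockout array was below every normal array, and normal replicate 1 stood highest. The log2 difference was -0.36 (SE 0.13, 95% interval from -0.65 to -0.06; limma adjusted p = 0.364), or 78.2% of the normal signal. The dimmer probe set read 52.1, 33.9 and 24.3 in knockout and 67.9, 35.3 and 57.9 in normal kidneys, with overlapping groups and a log2 difference of -0.56 (SE 0.35; limma adjusted p = 0.564). That value was -0.30 without knockout replicate 3 and -0.37 without normal replicate 1, and -0.85 without knockout replicate 1.

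Chains of 1 trimer were also compared within each array, which removes any scaling of the array as a whole. The brightest probe set of Lama5 minus that of Lamc1 was -2.29, -2.52 and -2.42 on the log2 scale in the 3 knockout arrays, against -2.03, -2.05 and -2.13 in the 3 normal arrays. All knockout values were below all normal values, and the means differed by -0.34 (exact two-sided permutation p = 0.1, the smallest that 3 against 3 arrays allow; 0.3 after adjustment over the 3 pairs). With the mean of all tested probe sets of each gene that difference was -0.19, and the groups overlapped. For Lama1 minus Lamc1 the values were -1.52, -1.89 and -1.70 in knockout and -1.84, -1.18 and -1.37 in normal kidneys, a difference of -0.24 with overlapping groups (exact permutation p = 0.3, adjusted 0.45). It was -0.43 without normal replicate 1, -0.10 without normal replicate 2, -0.15 without knockout replicate 2 and -0.14 with the mean of all tested probe sets of each gene. Lamb1 minus Lamc1 stood at 1.83, 1.74 and 1.98 in knockout and 1.15, 1.81 and 1.94 in normal kidneys, a difference of 0.22 (exact permutation p = 0.6, adjusted 0.6) that was -0.02 without normal replicate 1. No pair could pass at this number of arrays. Since signals of different probe sets have different scales, the difference between groups has a meaning here and the height of the values does not.

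**Figure D3:**
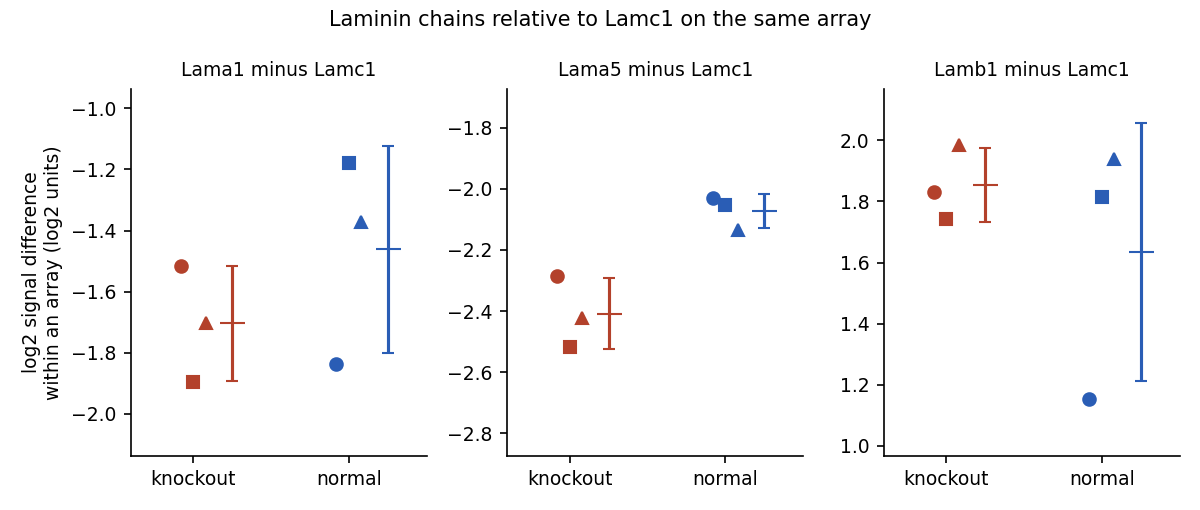
Log2 signal of Lama1, Lama5 and Lamb1 minus that of Lamc1 on the same array (log2 units), for knockout (red, left) and normal arrays (blue, right), with a marker shape for each replicate, and the mean and SD of each group beside the points (n = 3 each). Each gene is shown by its brightest probe set. The 3 panels have vertical axes of equal length at different heights, and by these probe sets the groups separate for Lama5 alone of the 3 pairs.

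Nid1 encodes the first nidogen and was measured by 2 tested probe sets. The brighter read 756.9, 963.8 and 651.6 in knockout replicates 1 to 3, against 1028.4, 791.6 and 885.6 in normal replicates 1 to 3. These groups overlapped, with knockout replicate 3 the lowest array, and the log2 difference was -0.20 (SE 0.15, 95% interval from -0.54 to 0.14; limma adjusted p = 0.630). It was -0.07 without knockout replicate 3 and -0.10 without normal replicate 1, and -0.35 without knockout replicate 2. The dimmer probe set read 186.1, 204.2 and 135.2 in knockout and 241.4, 111.1 and 165.6 in normal kidneys. Its log2 difference of 0.07 (SE 0.27; limma adjusted p = 0.940) had the opposite sign. The remaining Nid1 probe set, below the filter, read 12.2, 18.0 and 13.0 in knockout and 18.5, 5.8 and 19.3 in normal kidneys.

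Nid2, the second nidogen, which can stand in for the first in many basement membranes of the mouse, read 306.1, 331.1 and 235.7 in knockout replicates 1 to 3, against 415.8, 331.8 and 341.6 in normal replicates 1 to 3. The groups did not overlap, but knockout replicate 2 and normal replicate 2 differed by less than 1 signal unit. The log2 difference was -0.33 (SE 0.15, 95% interval from -0.67 to 0.01; limma adjusted p = 0.448), and it was -0.18 without knockout replicate 3.

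The arrays of a group were not alike for this family. Knockout replicate 3 was the lowest of the 6 arrays for 11 of the 15 tested probe sets, against 18.5% of all probe sets tested. Normal replicate 1 was the highest for 8 of the 15, against 27.5% of all. By the brightest probe set of each of the 9 genes, the mean log2 signal relative to the normal arrays was -0.15, -0.11 and -0.46 in knockout replicates 1 to 3, against 0.13, -0.05 and -0.08 in normal replicates 1 to 3. Without knockout replicate 3 the median difference of the 15 probe sets was -0.11 in place of -0.26, and 12 of the 15 were below 0. The median signal over the whole array was 31.5, 30.5 and 25.1 in knockout replicates 1 to 3 and 32.1, 24.9 and 30.7 in normal replicates 1 to 3. When each array was centred on its median, 13 of the 15 probe sets were again lower, with a median difference of -0.25.

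**Figure D4:**
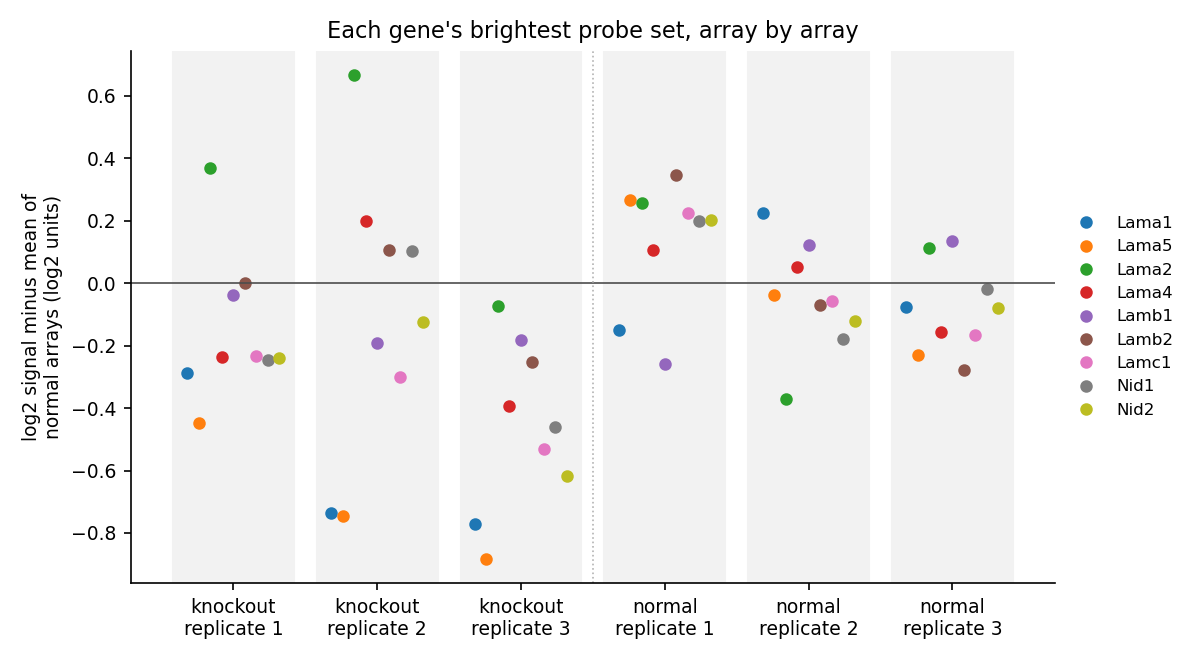
Log2 signal of each gene's brightest probe set minus the mean of the normal arrays (log2 units) on the 3 knockout arrays (left of the dotted line) and the 3 normal arrays (right of it), 1 point per gene and array. Lama1 and Lama5 are the lowest points on each knockout array, and 7, 5 and 9 of the 9 genes are below 0 on knockout replicates 1 to 3.

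Genes that act with laminin were counted by their brightest tested probe set, and none of the lists below held a gene past an adjusted p of 0.05, where 0.602% of all 12464 genes passed. The shares given above for all genes, 50.6% lower and 11.7% at an unadjusted p under 0.05, hold for these lists too. Among the 9 laminin receptor genes, 7 were tested, of which 5 were lower and 2 higher, with a median log2 difference of -0.32, against -0.003 over all genes. That median is the value of Itga2 (SE 0.53), a dim gene at 9.3 to 35.3 on the 6 arrays. The 2 higher genes were Itga6 and Itgb1, at log2 differences of 0.13 and 0.06. Itga7 and Itgb4 were too dim to test. An unadjusted p under 0.05 was found for 2 of the 7, both lower. Dag1, which encodes dystroglycan, read 611.8, 591.6 and 612.8 in knockout replicates 1 to 3, against 907.5, 826.2 and 679.8 in normal replicates 1 to 3 (log2 difference -0.40, SE 0.11; limma adjusted p = 0.236). Itga3, the alpha chain of an integrin that binds laminin alpha5, read 112.5, 116.4 and 101.8 in knockout and 184.9, 124.9 and 148.2 in normal kidneys. Its log2 difference was -0.45 (SE 0.17, limma adjusted p = 0.377). For both genes all knockout arrays lay below all normal arrays. The enzymes that build the laminin-binding glycan on dystroglycan had 8 of 12 genes tested, 5 lower and 3 higher, and a median log2 difference of -0.05, with none at an unadjusted p under 0.05. The 2 with the smallest p were B4gat1 (log2 difference -0.12, SE 0.11) and B3galnt2 (log2 difference -0.14, SE 0.12).

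Other basement membrane components had 17 of 19 genes tested, 16 lower and 1 higher, and a median log2 difference of -0.28, while Col4a3 and Col4a4 were too dim to test. An unadjusted p under 0.05 was found for 7 lower genes and 1 higher one. The smallest p belonged to Col4a2, a collagen IV chain to which nidogen ties laminin, at 657.4, 671.6 and 701.9 in knockout replicates 1 to 3, against 1131.6, 970.4 and 818.0 in normal replicates 1 to 3 (log2 difference -0.51, SE 0.12; limma adjusted p = 0.137). It was followed by Agrn, encoding agrin, a proteoglycan that binds laminin through its gamma1 chain, at a log2 difference of -0.38 (SE 0.09; limma adjusted p = 0.140). In both genes knockout and normal arrays did not overlap.

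The genes closest to a member over the 6 arrays were found by the root mean square difference of log2 signals, each centred on the gene's own mean. Closest to Lama5 were Crtc2 (0.0693), Heyl (0.0728) and Lmo1 (0.0767), where the median over all genes was 0.431. The nearest to Lama1 were Runx1 (0.0817), Per3 (0.0843) and Agpat1 (0.104), with a median of 0.396 over all genes. For Lamc1 they were Tmppe (0.0560), Plxna1 (0.0567) and Mical3 (0.0590), with a median of 0.289. No member of the family was among the 3 nearest to Lama1, Lama5 or Lamc1. The genes named are the best matches among 12464 genes on only 6 arrays, and how close a match arises by chance was not tested. Runx1 was dim, at 17.7 to 37.8.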

How the data were processed

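Whole embryonic kidneys of 3 knockout and 3 normal samples, grouped by their titles, were measured on Affymetrix arrays after a single amplification cycle from 1 µg of total RNA, per the labels' protocols. The deposited values are 1 linear intensity for each probe set. The submitters' processing notes name MAS5, and neither its version nor a stated scaling target is known here. The mean intensity trimmed at the 2nd and 98th percentile was 150.0 on each array, which points to a common scaling to that value. Array medians spanned 0.37 on the log2 scale, under the limit of 0.5, so no further scaling was applied. MAS5 subtracts mismatch signal, so dim probe sets scatter most after log2, for which 15 zeros were replaced by 1.7.

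After leaving out 64 controls, the 27022 probe sets with a mean log2 signal above the 40th percentile (a signal of 14.7) were fitted with limma 3.58.1 in R 4.3.3 (lmFit, eBayes with intensity trend); p-values were adjusted by Benjamini-Hochberg over all these probe sets. A gene of a list was represented by its brightest tested probe set. Among 45037 probe sets 34945 had 1 symbol, 932 several and 9160 none here. Simulated data with known changes were used to test the fit. Named are all member probe sets, for each list of partner genes those past the threshold or else the 2 with the smallest p, and the 3 nearest profiles of 3 members. The members, lists and tests were chosen with earlier results of these data known. Alternatives changed the scaling, the filter, the floor (a pseudocount of 16), the variance model, array weights, the replicate number as a term, the probe set of a gene and each array. Promoters came from the RefSeq table of GRCm38.p6, searched in Python 3.11.15. The number of arrays, 3 per group, limits the precision.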

Additional observations from a re-analysis of the deposited data

How the results depend on the processing

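None of the 15 tested probe sets passed the adjusted threshold under any of the 16 settings run, where the smallest adjusted p for each setting lay between 0.148 (median centring) and 0.524 (without knockout replicate 3). Of the 239 member values under these settings, 233 kept their sign. The exceptions were Lamb2, whose -0.05 became 0.065 with array weights and 0.10 without both arrays numbered 1, and ran from -0.19 to 0.12 as each array was left out, and the dimmer Nid1 probe set, which ran from -0.21 to 0.35. The difference of Lamb1 from Lamc1 within an array ran from -0.023 (without normal replicate 1) to 0.37. Their cause was not tested. The count over all probe sets, 157, was 434 with median centring, 41 without the intensity trend, between 49 and 148 as each array was left out and 31 without both arrays numbered 1, a setting added after seeing the data. Same-numbered samples did not deviate together (correlations of -0.20 to 0.08), and the main fit did not treat the numbers as a pairing. These correlations, from 3 arrays per group, cannot exclude a batch shared by same-numbered samples. With the replicate number as a block 109 probe sets passed, and 0 members. The dimmer Lamc1 probe set was not tested under the filter at the 60th percentile. Without the filter the 3 member probe sets below it gave log2 differences of 0.52, -0.26 and 0.15 with standard errors of 1.27, 1.30 and 0.58 (Lama5, Lamb1 and Nid1).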

Other observations

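Of the other chains of the laminin family, Lama3 and Lamb3, chains of the laminin of skin and other stratified epithelia, were too dim to test, with signals of at most 18.1 and 8.3 on any array. Lamc3, the gamma3 chain, read 17.1, 14.7 and 19.8 in knockout replicates 1 to 3 and 22.0, 20.2 and 23.2 in normal replicates 1 to 3, near the filter level of 14.7 (log2 difference -0.35; limma adjusted p = 0.685). Its other tested probe set overlapped between the groups, at 13.7, 21.7 and 11.7 in knockout and 27.9, 15.9 and 11.8 in normal kidneys (log2 difference -0.20; limma adjusted p = 0.892). Ntn1, a netrin whose end resembles that of laminin chains, read 455.9, 602.1 and 425.8 in knockout and 428.0, 509.1 and 480.4 in normal kidneys (log2 difference 0.05; limma adjusted p = 0.908). Ntn4, a netrin that binds laminin and is found in basement membranes, read 14.9, 21.8 and 14.3 in knockout and 25.4, 20.4 and 17.1 in normal kidneys (log2 difference -0.31; limma adjusted p = 0.760). Neither netrin nor Lamc3 passed the threshold. None of the remaining cell type lists held a gene past the adjusted threshold, and 11.7% of all genes had an unadjusted p under 0.05 in either direction. Erythroid and macrophage genes were mostly higher in the knockout. All 5 tested erythroid genes were higher, 3 of them at an unadjusted p under 0.05, with a median log2 difference of 0.86. Their summed signal, most of it from the globins Hbb-y and Hba-x, was 14436 to 17779 in knockout and 11942 to 16241 in normal kidneys. Of 10 macrophage genes 9 were higher, 2 of them at an unadjusted p under 0.05, with a median log2 difference of 0.59 and sums of 997 to 1461 in knockout and 510 to 1105 in normal kidneys. The 11 renal stroma genes had 6 lower and 5 higher, 1 in each direction at an unadjusted p under 0.05, and sums of 16054 to 19108 in knockout and 16274 to 20834 in normal kidneys. The 11 tested nephron progenitor genes also had 6 lower and 5 higher, 3 and 2 of them at an unadjusted p under 0.05, and sums of 5672 to 6795 in knockout and 6580 to 7545 in normal kidneys.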
